A study of Caenorhabditis elegans with 2 samples.

Results

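The SmY RNA genes of Caenorhabditis elegans encode small nuclear RNAs of nematodes that have been linked to trans-splicing. The genes smy-1 to smy-10 were taken by name from the annotation of the WBcel235 genome (ce11), which gave 10 of 46890 annotated nuclear genes. The annotation holds 12 SmY genes in all, and smy-11 and smy-12 are given below as neighbours for comparison. Binding was measured by chromatin immunoprecipitation and sequencing (ChIP-seq) of eGFP-tagged SNPC-4 in whole L4 larvae, the last larval stage. The worms were of strain OP179, genotype unc-119(ed3) III; wgIs179, a strain from the CGC in which the tagged snpc-4 is carried by an inserted transgene, and the labels give the sex as mixed, with males and females pooled. All samples form 1 group of 2 biological replicates, without an input or untagged sample among those analysed, so the background in a control could not be examined here. Whole animals were used, so occupancy in one tissue cannot be told apart from occupancy in another, and the transgene's protein stands in for the endogenous one.

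In trans-splicing, a short spliced leader (SL) exon is moved from an SL RNA onto the start of many nematode mRNAs. The SL1 and SL2 RNAs are used up in the reaction, since each gives away its leader. SmY RNAs are bound by the Sm protein ring and by a protein partner that they share with the spliced leader particles, and have been linked to the recycling of these particles' proteins. SNPC-4 is the worm relative of SNAPC4, a DNA-binding subunit of SNAPc, the complex that activates snRNA genes and recognises a proximal sequence element upstream of them.

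The authors' lists give a summit position and a signal value for each peak. No scale is stated for this signal, so it served only to rank and describe peaks within a list, with rank 1 the strongest. The optimal list thresholded by irreproducible discovery rate (IDR) held 381 peaks with signals from 21.4 to 1230. These were the 381 strongest of the 30000 peaks in the pooled list, for which the replicates were combined. The lists of single replicates held 11042 peaks for replicate 1 and 30000 for replicate 2, at no stated threshold and with background regions included. No read counts are in the files, so the depth of each sample is unknown, and with 1 group and no control no test over samples could be made.

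The RNAs of the members are related to different degrees, and the annotated sequences of 5 copies with strong and with weak summits are shown first so that they can be compared. All 10 members could be read from the genome. They are written 5′ to 3′ as DNA from the RefSeq sequence of WBcel235, in lower case, with the letters ATTTTTG in capitals, which match the usual form of the uridine-rich binding site of Sm proteins.
smy-2 (chrIV:9511395-9511466, minus strand): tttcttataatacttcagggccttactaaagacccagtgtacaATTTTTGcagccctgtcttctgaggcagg
smy-3 (chrV:14092572-14092651, plus strand): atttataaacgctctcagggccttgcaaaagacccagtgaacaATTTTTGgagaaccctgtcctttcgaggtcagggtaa
smy-4 (chrV:14094619-14094699, minus strand): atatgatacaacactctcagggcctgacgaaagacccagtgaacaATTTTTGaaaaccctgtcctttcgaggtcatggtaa
smy-8 (chrIV:13600847-13600925, plus strand): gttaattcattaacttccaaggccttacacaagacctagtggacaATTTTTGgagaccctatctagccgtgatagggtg
smy-10 (chrIV:13601636-13601725, plus strand): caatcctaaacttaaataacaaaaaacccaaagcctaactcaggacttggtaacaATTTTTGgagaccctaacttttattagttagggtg
The capital letters occurred once in each of the 10 SmY RNAs, starting between nucleotides 42 and 56 of RNAs of 72 to 90 nt. The same letters, on the sense strand, were in 14 of 19 SL2 RNAs (73.7%), in 49 of 89 other genes of the snRNA biotype (55.1%), in 17 of 344 snoRNA genes outside the SmY family (4.94%) and in 0 of 612 tRNA genes. The annotation gives the snoRNA biotype to smy-2 and smy-3 and the snRNA biotype to the other 8 members, although all of them hold these letters.

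The upstream sequences differ more than the RNAs do. The 110 bases before the annotated 5′ end are shown for 6 genes: the neighbours smy-1 and smy-2, the neighbours smy-3 and smy-4, the lone copy smy-7, and smy-8. Capitals mark a 9-letter core, GCGGAACCC or its closest match with a first base −70 to −50 bp from the 5′ end, and the 4 letters that follow it after a gap of 6.
smy-1 (chrIV:9511840-9511949, minus strand): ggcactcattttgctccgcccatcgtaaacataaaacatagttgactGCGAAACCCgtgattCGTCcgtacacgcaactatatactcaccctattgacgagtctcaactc
smy-2 (chrIV:9511467-9511576, minus strand): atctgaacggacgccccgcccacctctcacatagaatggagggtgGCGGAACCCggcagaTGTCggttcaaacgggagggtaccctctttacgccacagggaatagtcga
smy-3 (chrV:14092462-14092571, plus strand): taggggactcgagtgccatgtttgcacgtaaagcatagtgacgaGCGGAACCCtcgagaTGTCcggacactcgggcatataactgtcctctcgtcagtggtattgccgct
smy-4 (chrV:14094700-14094809, minus strand): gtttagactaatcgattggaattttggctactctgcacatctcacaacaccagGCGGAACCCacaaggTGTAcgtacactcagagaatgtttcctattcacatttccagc
smy-7 (chrIV:6460765-6460874, minus strand): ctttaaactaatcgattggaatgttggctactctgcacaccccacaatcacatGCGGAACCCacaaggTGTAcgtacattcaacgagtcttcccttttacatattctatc
smy-8 (chrIV:13600737-13600846, plus strand): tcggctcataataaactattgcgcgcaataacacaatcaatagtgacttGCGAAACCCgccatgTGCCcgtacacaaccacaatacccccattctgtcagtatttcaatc
The core was found because GCGGAACC was known from earlier results of these data as an 8-mer of SNPC-4 peaks, and it was extended by 1 letter after the members' sequences were compared. GCGGAACCC was in the 100 bp upstream of 6 of the 10 members, searched on both strands: smy-2, smy-3, smy-4, smy-5, smy-6 and smy-7. Among all annotated genes 63 of 46890 (0.134%) had it there. The core came from these data and was lengthened on the members themselves, so this contrast is a description and carries no test. The other 8-mer known from these data, GGCCGACA, was in 0 of the 10 members and in 60 of all upstream windows (0.128%). On the strand of the genes, the most shared 8-mer not inside the core, GGCGGAAC, overlaps it and was upstream of 4 members.

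The summits at SmY genes ranged from rank 22 of the pooled list down to no summit at all. Of the 10 SmY genes, 3 had a summit within 300 bp of the 5′ end in the IDR list, smy-2, smy-3 and smy-8, where the share over all annotated genes was 0.874%. In the pooled list 8 of 10 had one, against 23.7% of all genes. In the replicate lists the counts were 5 of 10 for replicate 1, against 13.6%, and 8 of 10 for replicate 2, against 20.1%. Among the 381 strongest peaks of each replicate alone, the counts were 4 of 10 in replicate 1 (smy-2, smy-3, smy-8 and smy-10), where the share of all genes was 0.938%, and 2 of 10 in replicate 2 (smy-2 and smy-3), where it was 0.825%. A summit was in both full replicate lists at 4 of 10 members, smy-2, smy-3, smy-8 and smy-10, against 4.76% of all genes. The long lists reach far into background, so a weak summit there is read only against those shares.

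**Figure D1:**
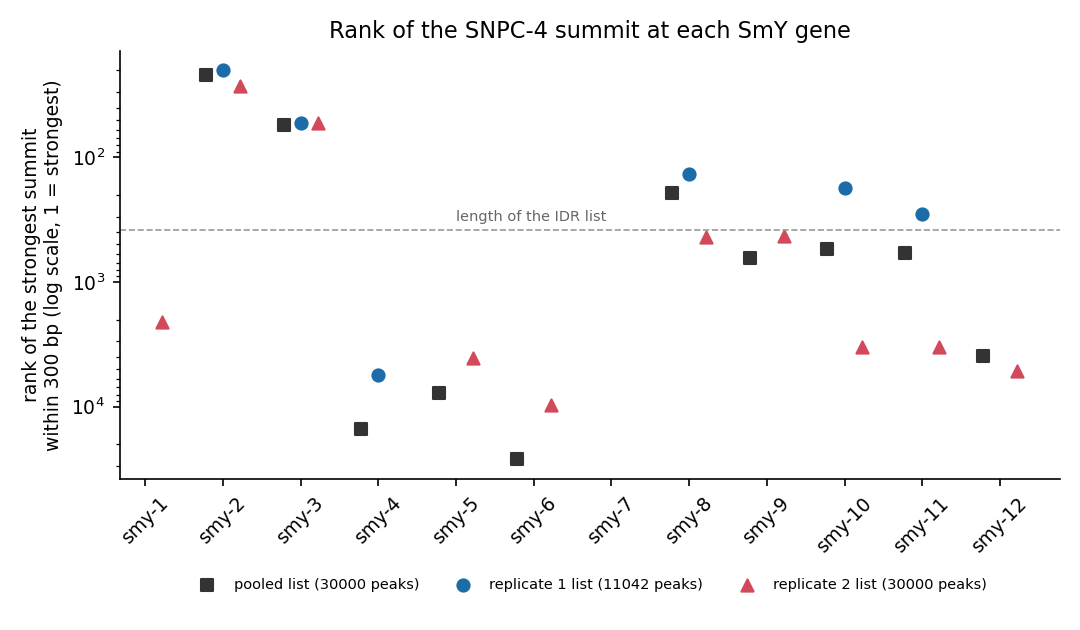
Rank of the strongest summit within 300 bp of each SmY gene's 5′ end (y axis, log scale, rank 1 at the top) in the pooled list and in each replicate list; a missing symbol means no summit in that list. The genes smy-2 and smy-3 lie between ranks 20 and 55 in all 3 lists, while smy-4, smy-5 and smy-6 lie between ranks 4055 and 26448 wherever they have a summit, and smy-7 has none.

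The strongest SmY peak was at smy-2 (WBGene00045109, chrIV:9511395-9511466), a 72-nt gene in an intron of the protein-coding gene C33A12.3, on the same strand. Its summit had a signal of 427 and rank 22 in the IDR and pooled lists, 224 and rank 20 in replicate 1, and 201 and rank 27 in replicate 2. Its position was −53, −54 and −56 bp in the pooled, replicate 1 and replicate 2 lists, so the replicates placed it 2 bp apart. Among peaks of the IDR list at small RNA genes it ranked just below that of the snoRNA gene F59C6.15 (447) and just above that of the snoRNA gene Y74C9A.6 (424).

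Its neighbour smy-1 (WBGene00045194, chrIV:9511763-9511839) lies 373 bp upstream on the same strand, measured between 5′ ends, and is also intronic in C33A12.3. No summit was within 300 bp of smy-1 in the IDR, pooled or replicate 1 lists. The nearest summit in these lists was the one of smy-2, at 320, 320 and 319 bp downstream of the smy-1 5′ end, past the end of the 77-nt smy-1. Replicate 2 had a weak summit of its own at smy-1, at −134 bp, with signal 7.84 and rank 2086. These values also mark the edge of the 300 bp rule: the −134 bp summit at smy-1 was the farthest counted, and the nearest uncounted ones were at 310 bp from smy-4 and at 317 bp from smy-1, both in replicate 2. The RNAs of smy-1 and smy-2 were 75.6% identical and the 100 bp upstream of them 53.8%.

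On chromosome V, smy-3, smy-4, smy-5 and smy-6 lie in that order within a few kilobases, smy-3 on the plus strand and the other 3 on the minus strand. The gene smy-3 (WBGene00045159, chrV:14092572-14092651) stands outside protein-coding genes and had a strong peak. Its signal was 178 at rank 55 in the IDR and pooled lists, 82.1 at rank 53 in replicate 1 and 95.4 at rank 53 in replicate 2. The summit positions were −51, −61 and −56 bp. Both replicates thus gave it the same rank. The peak also lies within 300 bp of the 5′ end of the protein-coding gene D1086.3 on the same strand, at −271 bp from it. Next above it among the IDR peaks at small RNA genes was the peak of sup-39 and mir-1831 (184), both annotated with the snRNA biotype. Next below it was that of the tRNA gene WBGene00014563 (175).

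The 3 minus-strand copies beside smy-3 had weak summits, each absent from one of the replicate lists. The gene smy-4 (WBGene00045200, chrV:14094619-14094699), in an intron of D1086.8 on the opposite strand, had a summit of signal 4.90 at rank 15201 and −48 bp in the pooled list. In replicate 1 it had signal 2.92 at rank 5540 and −67 bp, and replicate 2 had none within 300 bp. Its nearest summit in replicate 2 was at 310 bp, with signal 3.55 and rank 17412. For comparison, the median signal over all peaks was 4.92 in the pooled list and 2.93 in replicate 1, so smy-4 stood just under the middle of both lists.

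The gene smy-5 (WBGene00045199, chrV:14096389-14096465), in an intron of D1086.8 on the opposite strand, had signal 6.45 at rank 7793 and −26 bp in the pooled list. It had 6.37 at rank 4055 and −21 bp in replicate 2, and no summit in replicate 1. The gene smy-6 (WBGene00044965, chrV:14097435-14097517), in an intron of D1086.2 on the same strand, had signal 3.58 at rank 26448 and −39 bp in the pooled list, near the end of that list. Replicate 2 gave it 4.70 at rank 9671 and −71 bp, and replicate 1 gave it none. No summit of these 3 genes was in the IDR list. The authors' −log10 q for them in the pooled list was 0.475 at smy-4, 0.881 at smy-5 and 0.223 at smy-6, against 3.16 for each IDR peak. That value is not particular to IDR peaks, since the pooled summits of smy-9, smy-10 and smy-11, which are not in the IDR list, also had 3.16.

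The lone copy smy-7 (WBGene00045205, chrIV:6460683-6460764) lies outside protein-coding genes on chromosome IV, 3050702 bp from its nearest SmY gene. It had no summit within 300 bp in any of the 4 lists. The nearest in the pooled list was 2108 bp away.

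The trio smy-8, smy-10 and smy-9 lies in that order on the plus strand of chromosome IV, outside protein-coding genes, with 789 and 566 bp between the 5′ ends. The gene smy-8 (WBGene00045203, chrIV:13600847-13600925) was the third member in the IDR list, near the median of that list (31.7), with signal 31.4 at rank 194 and −16 bp. Replicate 1 gave it signal 17.0 at rank 135 with the summit at 16 bp, and replicate 2 gave it 13.8 at rank 433 with the summit at −15 bp. The rank in replicate 2 lay outside the 381 strongest peaks, and the summit fell on either side of the 5′ end. Among the IDR peaks at small RNA genes, the next above was that of the snRNA gene ZK897.4 (33.0, rank 178) and the next below that of the snRNA gene F07C6.5 (30.9, rank 197). The annotation gives the name F07C6.5 also to another snRNA gene, which had signal 13.9 at rank 972 in the pooled list.

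The gene smy-10 (WBGene00045201, chrIV:13601636-13601725), the longest RNA of the family at 90 nt, had signal 17.9 at rank 548 and 44 bp in the pooled list. In replicate 1 its signal was 13.8 at rank 176 and 79 bp, and in replicate 2 it was 6.79 at rank 3330 and −46 bp. The replicates placed the summit 125 bp apart, inside the gene in one and upstream of it in the other. The gene smy-9 (WBGene00044967, chrIV:13602202-13602278) had signal 16.6 at rank 637 and −16 bp in the pooled list and 13.9 at rank 429 and −43 bp in replicate 2. The pooled summit also lies within 300 bp of the 5′ end of the 21U-RNA gene 21ur-8789 on the same strand, at −278 bp from it. Replicate 1 had none there, and its nearest summit, at −487 bp, was that of smy-10. Replicate 1 thus had a summit at smy-10 and not at smy-9, while replicate 2 ranked smy-9 above smy-10.

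**Figure D2:**
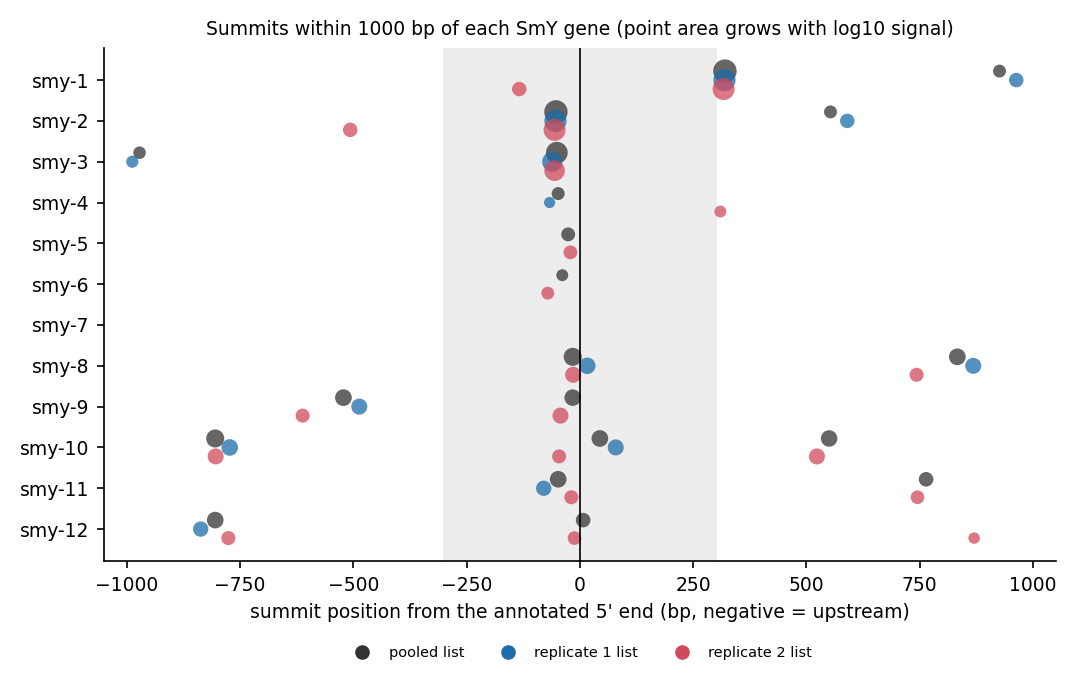
Position of every summit within 1000 bp of each SmY gene's 5′ end (x axis, bp, negative upstream) in the pooled and replicate lists; point area grows with log10 signal and the grey band marks 300 bp on either side. The strongest summits of smy-2 and smy-3 fall between −61 and −51 bp in all lists, the large points 317 to 320 bp downstream of smy-1 are the peak of smy-2, and the summits of smy-10 also appear in the rows of its neighbours smy-8 and smy-9.

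The further pair smy-11 and smy-12, 757 bp apart and each intronic in Y57G11C.38, had weak to middling summits. The gene smy-11 had signal 17.5 at rank 582 and −48 bp in the pooled list, 10.7 at rank 283 in replicate 1 and 6.80 at rank 3310 in replicate 2. The gene smy-12 had signal 8.20 at rank 3905 and 7 bp in the pooled list, 5.92 at rank 5161 in replicate 2 and none in replicate 1. In the pooled list the 8 members with a summit had a median signal of 17.3, a median rank of 592.5 and a median summit position of −32.5 bp.

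The RNA sequence and the upstream sequence sorted the genes differently. Over the 45 pairs of members, RNA identity ran from 54.9% to 89.3% with a median of 71.6%, and upstream identity from 46.8% to 83.3% with a median of 56.1%. The RNA of smy-3 was 87.8% identical to that of smy-4, 85.2% to that of smy-5 and 84.7% to that of smy-6, yet upstream the same pairs shared 57.3%, 56.1% and 58.6%. Among smy-4 to smy-7, with weak summits or none, the upstream sequences were alike too: smy-4 and smy-7 shared 83.3%, smy-4 and smy-5 77.4%, and smy-6 and smy-7 68.3%. The members with the strongest peaks, smy-2 and smy-3, shared 74.1% of the RNA and 54.3% upstream. The RNA of smy-10 stood apart from all other members, at 64.8% or less. The identity that unrelated sequences reach in such alignments was not computed. Values near the upstream median of 56.1% are therefore not read as similarity.

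**Figure D3:**
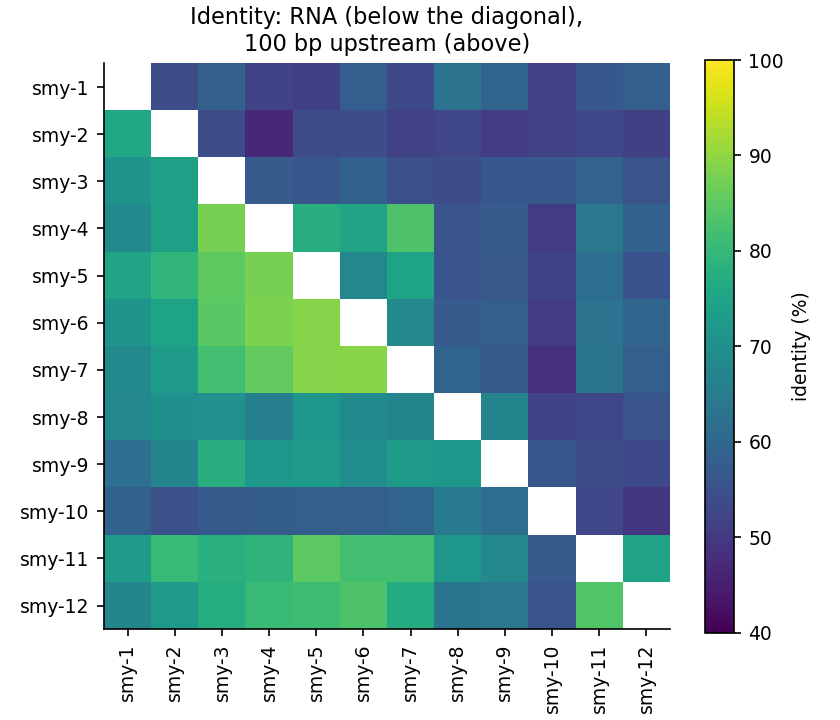
Percent identity of each pair of SmY genes in global alignments, with the RNA below the diagonal and the 100 bp upstream above it (colour scale 40 to 100%). The block of smy-3 to smy-7 is bright below the diagonal, while above it smy-3 drops out and smy-4 to smy-7 remain, with 68.0% to 83.3%.

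The stretch that begins with the core is set out for each gene so that the letters can be compared, with the same capitals as above. All lie on chromosomes IV and V, and all are 5′ to 3′ on the strand of the gene.
smy-1: GCGAAACCCgtgattCGTCcgtacac
smy-2: GCGGAACCCggcagaTGTCggttcaa
smy-3: GCGGAACCCtcgagaTGTCcggacac
smy-4: GCGGAACCCacaaggTGTAcgtacac
smy-5: GCGGAACCCacaaagTGTAcgtacac
smy-6: GCGGAACCCgtcaagTGTAcggacac
smy-7: GCGGAACCCacaaggTGTAcgtacat
smy-8: GCGAAACCCgccatgTGCCcgtacac
smy-9: GCTAAACCCgcattgCGTCcgtacac
smy-10: GCGAAACGTccgtttACGCgcgcgca
smy-11: GCGGAACCCgtgaggTGTAcgtacat
smy-12: GCGAAACCCgtgaggTGTAcgtacat
The first base of the core lay at −65 bp at smy-2, −66 at smy-3, −57 at smy-4, −63 at smy-5, −60 at smy-6 and −57 at smy-7. The best placements at smy-1 and smy-8 had 1 mismatch to the core, that at smy-9 had 2 and that at smy-10 had 3. The pooled summit was 12 bp downstream of the first base at smy-2 and 15 bp at smy-3, and 9 bp at smy-4 and 21 bp at smy-6, so all 4 of these summits lay inside the stretch. It lay past the stretch at the others. There it was downstream of the first base by 37 bp at smy-5, 45 bp at smy-8, 46 bp at smy-9 and 97 bp at smy-10. The replicate summits of smy-2 and smy-3 also lay inside the stretch. At smy-4 and smy-6 a single replicate list had a summit, and it lay upstream of the first base. It was at −67 bp at smy-4 in replicate 1 and at −71 bp at smy-6 in replicate 2.

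The 6 members with the exact core fell into 2 forms by the letters after the gap. Form 1, the core followed after any 6 letters by TGTC, was upstream of smy-2 and smy-3, the members with the strongest peaks, at pooled ranks 22 and 55. Form 2, the core followed after any 6 letters by TGTA, was upstream of smy-4, smy-5, smy-6 and smy-7, at pooled ranks 15201, 7793 and 26448 and with no summit at smy-7. The remaining 4 members had neither form, and of these smy-8, smy-10 and smy-9 had ranks 194, 548 and 637, while smy-1 had no summit. The order is not complete even in the family: smy-11 has form 2 and stood at rank 582. The gene smy-12, at rank 3905, has the letters TGTA after a core with 1 mismatch and so counts under neither form. The pooled summits of smy-8, smy-9, smy-10, smy-11 and smy-12 also lay within 300 bp of the 5′ ends of 21U-RNA genes. That of smy-3 also lay within 300 bp of the 5′ end of D1086.3. The ranks at these genes cannot be assigned to the SmY gene alone. The forms were told apart after the ranks were known, so the split is a description and carries no test.

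**Figure D4:**
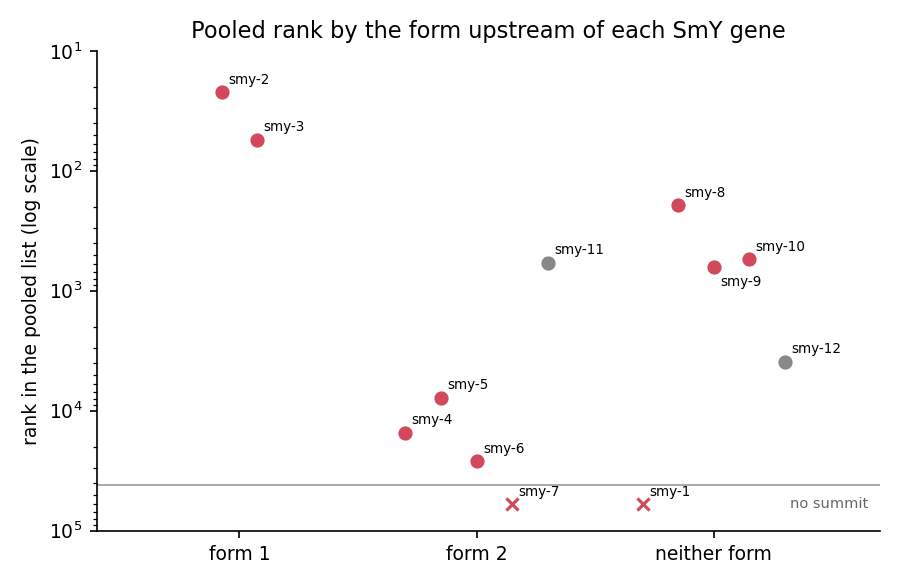
Rank of the strongest summit within 300 bp in the pooled list (y axis, log scale, rank 1 at the top) by the form upstream of each SmY gene, with crosses for genes with no summit, red for smy-1 to smy-10 and grey for smy-11 and smy-12. The form 1 genes stand at ranks 22 and 55, the form 2 genes among the 10 members stand between ranks 7793 and 26448 or have no summit, and smy-11 with form 2 stands at rank 582.

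Form 1, with both strands searched, was in the 100 bp upstream of 50 of 46890 genes (0.107%), among them 3 of 19 SL2 genes and 19 of 89 other snRNA genes. Of the other snRNA genes, it was upstream of 9 of the 28 with an IDR peak (32.1%) and of 10 of the 61 without one (16.4%). Form 2 was upstream of 6 genes (0.0128%): the 4 members, smy-11 and the snRNA gene ZK897.3. The last had an IDR peak, at signal 23.5 and rank 312. In the whole genome form 2 had 8 matches, of which 5 were at SmY genes. Of these 8, 7 (87.5%) were within 100 bp of a pooled summit and 2 within 100 bp of an IDR summit, at ZK897.3 and at a place on chromosome X 1786 bp from its nearest annotated gene, C54H2.9 (34.6, rank 169). Form 1 had 612 matches, of which 279 (45.6%) were near a pooled summit and 58 (9.48%) near an IDR summit. The share of genome positions this close to a summit was not computed, so these percentages have no background beside them. The matches of each form include the SmY genes by which the forms were told apart, so summits at those genes are counted again here. The core of both forms was itself known from SNPC-4 peaks of these data. The shares with and without a peak, also at the other snRNA genes, are therefore not independent of those peaks and carry no test.

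Windows of repeated sequence were found at smy-4 to smy-7 and at smy-11. Of the 265 windows of 36 bases within 150 bp of the 5′ end, 31 at smy-5 (11.7%), 19 at smy-7 (7.17%), 4 at smy-4 and 1 at smy-6 were found elsewhere in the genome, and 0 were at smy-1, smy-2, smy-3, smy-8, smy-9 and smy-10. At smy-11, which stood at pooled rank 582, 12 windows were (4.53%), more than at smy-4 or smy-6. The sources used here do not say how reads from repeated sequence were treated. The part of repeats in the low signal of these 4 genes was not tested.

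The share of SmY genes in the IDR list, 3 of 10, lay below that of the SL2 genes and close to that of other snRNA genes. Of the 19 SL2 genes, 1 of which Ensembl annotates as a pseudogene, 14 were in the IDR list (73.7%) with a median signal of 219, and of the 89 other snRNA genes 28 were (31.5%) with a median signal of 87.2. The 3 SmY genes with an IDR peak had a median signal of 178. In the pooled list the median signal was 184 at the 17 SL2 genes with a summit, 26.2 at the 50 other snRNA genes and 17.3 at the 8 SmY genes. The median summit position in the IDR list was −49 bp for SL2, −54.5 bp for other snRNA genes and −51 bp for the 3 SmY genes. In the pooled list it was −48 bp for SL2, −48 bp for other snRNA genes and −32.5 bp for the 8 SmY genes. These differences between classes were not tested, since the genes were chosen with the results known.

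**Figure D5:**
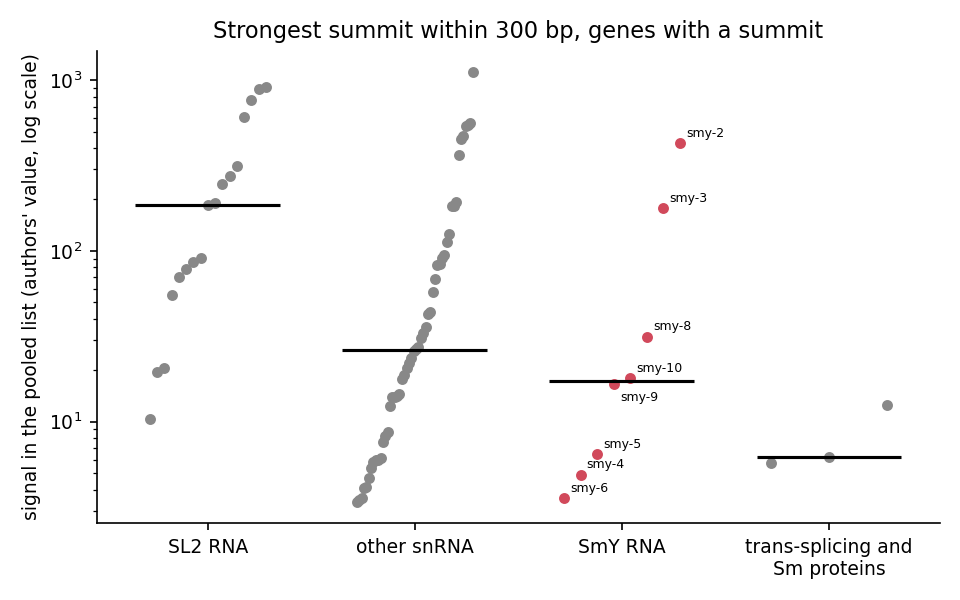
Signal of the strongest summit within 300 bp in the pooled list (y axis, the authors' value, log scale) for each gene with a summit, by class; bars mark the median, and points are spread sideways only to be seen. The SmY genes span from 3.58 at smy-6 to 427 at smy-2, inside the range of the other snRNA genes, while SL2 genes have a median of 184.

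In the IDR and pooled lists, the genes of the protein partners of these RNAs were near the shares of protein-coding genes. Of the 10 genes sna-1, sna-2 and sut-1, which encode proteins of the SL and SmY particles, and snr-1 to snr-7, which encode Sm proteins, 0 had a summit in the IDR list and 3 in the pooled list (sna-1, sna-2 and snr-3), where protein-coding genes as a whole had one in 0.661% and 23.4% of cases. The strongest of these, at snr-3, had signal 12.6 and rank 1190. In the replicate 1 list 1 of 10 had a summit (snr-3), against 10.6% of protein-coding genes. In the replicate 2 list 5 of 10 had one (sna-1, sna-2, snr-1, snr-2 and snr-3), against 22.5%. The 12 SL1 genes, which lie in a repeated array, had 0 summits in the IDR list and in the pooled list.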

How the data were processed

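The labels describe ChIP-seq of eGFP-tagged SNPC-4 in whole L4 larvae, with 1 group of 2 biological replicates, numbered 1 and 2. The authors deposited narrowPeak tables of 10 columns. They hold a signal value of unstated scale, deposited by the authors, and a −log10 q-value, also deposited by the authors, which is tied at 3.16 in the IDR list and was not used to rank. Per the records deposited with the files, a replicate's list derives from its own alignments plus a file common to both replicates. Not given in the sources used here are the aligner, the peak caller and the cutoff for IDR. Lists on ce11 were used and those on ce10 were not. Read depth is unknown.

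Genes came from Ensembl release 115 (WBcel235) and sequence from RefSeq. A gene had a summit where one lay within 300 bp of its 5′ end, and the strongest stood for it; the assignment was tested on simulated data. Identity used global alignment in Biopython 1.88 (match 1, mismatch −1, gap opening −2); tables used pandas 2.3.3 and numpy 2.4.6 under Python 3.11.15. All of smy-1 to smy-10 are named, with genes sharing their peaks, the next small RNA genes by rank and fixed lists of SL, snRNA and Sm protein genes. Members and lists were chosen with earlier results of these data known, and the 2 forms and the place of the core after the values were seen. Alternatives were 150 and 1000 bp, the upper 50% of peaks, overlap with the gene body, the nearest gene or summit, equal list lengths and each replicate alone.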

Additional observations from a re-analysis of the deposited data

How the results depend on the processing

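The count of 3 members in the IDR list was 3 within 150 bp, with overlap of the gene body and with each peak given only to its nearest gene, and 2 in the upper 50% of peaks. Within 1000 bp it was 5, because smy-1 and smy-10 then took in the peaks of smy-2 and smy-8. With 1 replicate alone it ranged from 2 to 4. Cut to 381 peaks, the pooled list gave 3 members instead of 8 and the replicate 2 list 2 instead of 8, since fewer peaks were searched. The median summit position of −32.5 bp ranged from −54 to −51 bp with 1 replicate left out, and the median rank of 592.5 from 135 to 1259.5. These medians are over different members, 8 in the pooled list, 8 without replicate 1 and 5 without replicate 2. The 2 replicate lists also differ in length, so the ranks are not on 1 scale. The summit changed side at smy-8, from −15 bp without replicate 1 to 16 bp without replicate 2, and at smy-10, from −46 bp without replicate 1 to 79 bp without replicate 2; the cause was not tested. Taking the nearest in place of the strongest summit changed nothing, since no member had more than 1 summit within 300 bp in a list. No paired analysis was possible because there is 1 group. Unknown depth, and the lack of a control sample among those analysed, limit what a weak or missing summit shows.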

Other observations

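Some SmY genes begin within a few bases of annotated 21U-RNA genes, the piRNA genes of nematodes. A 21U-RNA gene on the same strand began within 10 bp of the SmY 5′ end at 3 of 12 SmY genes: 21ur-3338 at 2 bp and 21ur-2046 at 5 bp downstream of the smy-8 5′ end, 21ur-3398 at 3 bp downstream of that of smy-10, and 21ur-458 at 2 bp downstream of that of smy-12. Of the 31515 genes that are neither SmY nor 21U-RNA genes, 19 (0.0603%) had one so placed. All 3 of these SmY genes lie on chromosome IV, whereas the 0.0603% is over all chromosomes. Other 21U-RNA genes also began within 300 bp of the pooled summits of smy-8, smy-9, smy-11 and smy-12. A share for genes of the same region was not computed, so the difference is not read as a trait of SmY genes. The IDR peak of smy-8 is also the peak of 21ur-3338 and 21ur-2046, at −18 and −21 bp from their 5′ ends, and of 21ur-11676 on the opposite strand. Binding for one of these genes and for another cannot be told apart from the peak lists.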
